A study of Mus musculus with 6 samples.

Results

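The 39 Hox genes of the mouse genome were followed in NMuMG cells, an epithelial line from normal mouse mammary gland. They were chosen by symbol, as the genes named Hox followed by a, b, c or d and digits alone, and made up 39 of the 21240 genes counted. HoxA held 11 of them, HoxB 10, HoxC 9 and HoxD 9. The cells were kept without serum and insulin for 6 h in all 3 groups. They then received vehicle for 2 h, 5 ng/ml TGFβ1 for 2 h, or 5 ng/ml TGFβ1 for 12 h, with 2 biological replicates per group and 6 libraries in all. Stranded total RNA was sequenced, and the libraries held between 14705886 and 23786993 counted reads. NMuMG is a single cultured line, and vehicle was sampled at 2 h only, so that 10 further hours in culture and the longer TGFβ treatment cannot be told apart in any comparison of 12 h with vehicle or with 2 h.

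Hox genes encode homeodomain transcription factors that give cells their position along the body axis. Vertebrates carry them in clusters named HoxA to HoxD, in which genes with the same number in different clusters are paralogs, low numbers lie at one end and high numbers at the other. Low-numbered genes act in anterior and high-numbered genes in posterior parts of the embryo, and adult epithelia, the mammary gland included, keep a set of active Hox genes.

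Most Hox genes were silent or nearly so in NMuMG cells. All 9 HoxD genes had 0 reads in all 6 libraries, HoxC had 10 reads in total, and the reads that were found came mainly from the low-numbered end of HoxA and from a single distant HoxB gene, Hoxb13. The 39 genes together received 871 reads, of which HoxA took 611 and HoxB 250. Over all libraries Hoxb13 took 25.5% of the Hox reads and Hoxa7 22.7%. By group, Hoxb13 took 28.9% in vehicle, 34.5% at 2 h of TGFβ and 7.31% at 12 h, and Hoxa7 took 20.5%, 22.8% and 26.0%, so that the order of both turned at 12 h. Of the 234 values given by 39 genes in 6 libraries, 156 were 0. A count of 0 allows a level of up to 0.131 to 0.191 CPM (reads per 1000000 counted reads) in a single library, and a gene at 0 in all 6 libraries allows up to 0.026 CPM. These limits cover counting error only.

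**Figure D1:**
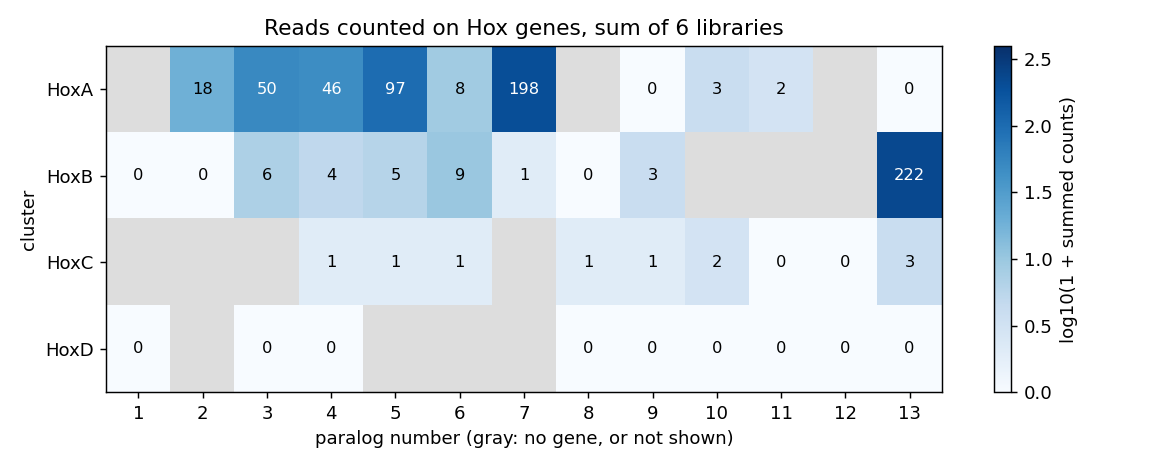
Sum of reads over the 6 libraries for Hox genes, with clusters as rows and paralog number from 1 to 13 on the horizontal axis. The color scale is log10(1 + summed counts) and gray marks numbers that a cluster lacks or that are not shown. Reads gathered at the low-numbered end of HoxA and at Hoxb13, and HoxD was at 0 throughout.

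Only 3 of the 39 genes, or 7.69%, reached 2 CPM in at least 2 libraries and could be tested, against 52.2% of all genes counted. Values are given for Hoxa7 and Hoxb13. Another 4 genes, Hoxa2, Hoxa3, Hoxa4 and Hoxa5, had more than 3 reads in at least 1 library but stayed below that level. A further 16 genes had between 1 and 3 reads in their highest library, which is at the counting floor, and 16 had no read in any library. These 36 genes were too low to judge, and no change is read from them. Levels of the tested genes were themselves low. Hoxa7 passed only through the vehicle libraries, where both replicates reached 2 CPM, and Hoxb13 passed through the vehicle and the TGFβ 2 h libraries, so passing favors genes that are higher in those groups.

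In HoxA, on chromosome 6 of the mm9 build, reads lay unevenly over the low-numbered end and nearly stopped at a narrow border. On the low-numbered side, Hoxa6 had 8 reads in total and Hoxa2 had 18. Hoxa7 had 198 reads in total, while Hoxa9, 1.25 kb further along, had 0 reads in all 6 libraries. Beyond it, Hoxa10 had 3 reads in 1 library of the TGFβ 12 h group, Hoxa11 had 1 read in each of 2 libraries and Hoxa13 had none. Hoxa10 to Hoxa13 are the genes known for patterning limbs and the urogenital tract. The promoters on either side of this border are shown because they belong to Hoxa7 and Hoxa9, between which the reads dropped. Both are the 250 bases before the RefSeq start site on the minus strand, with build GRCm38.p6, which differs from the build of the counts, and CpG pairs are in capitals. The Hoxa7 promoter lies at chr6:52218574-52218823 and the Hoxa9 promoter at chr6:52227371-52227620.
Hoxa7: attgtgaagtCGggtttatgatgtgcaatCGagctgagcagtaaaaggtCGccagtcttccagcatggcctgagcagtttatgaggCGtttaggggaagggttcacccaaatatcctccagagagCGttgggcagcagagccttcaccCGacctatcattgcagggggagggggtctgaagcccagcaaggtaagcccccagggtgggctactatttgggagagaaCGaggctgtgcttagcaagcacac
Hoxa9: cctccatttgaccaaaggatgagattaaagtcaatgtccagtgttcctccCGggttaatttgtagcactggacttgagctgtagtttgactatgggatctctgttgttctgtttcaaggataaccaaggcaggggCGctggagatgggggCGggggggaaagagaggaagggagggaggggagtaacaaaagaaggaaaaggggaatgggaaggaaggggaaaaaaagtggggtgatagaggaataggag

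The Hoxa7 stretch held 7 CpG pairs at 54.8% GC, and the Hoxa9 stretch 3 at 49.6% GC. The RefSeq table gave 24 promoters for 22 of the 39 Hox genes and none for the other 17, Hoxb13 among them. Their median was 12.5 CpG pairs, with a range of 2 to 35, and the median of all 32851 promoters in the table was 6. Neither border promoter held the SMAD box CAGACA or the AP-1 site TGACTCA (or TGAGTCA) on either strand. The SMAD box was present in 3 of the 24 Hox promoters and in 17.1% of all promoters, and the AP-1 site in 1 of the 24 and in 4.46% of all. These are matches of letters within a short window and say nothing about binding.

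Within the part of HoxA that was read, levels differed between genes when set per kb of exon. In vehicle, Hoxa7 stood at 0.736 ± 0.0562 CPM per kb (SD, n = 2), Hoxa5 at 0.546 ± 0.284 and Hoxa4 at 0.494 ± 0.190. Replicates of Hoxa7, Hoxa5 and Hoxa4 overlapped from each to the next. Hoxa2 at 0.0749 ± 0.0315 and Hoxa3 at 0.0545 ± 0.0284 CPM per kb lay well below them. Hoxa2 and Hoxa3 share some exon sequence, so reads there could belong to either. Hoxa6 had at most 3 reads in any library, between neighbors with 97 and 198 reads in total.

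**Figure D2:**
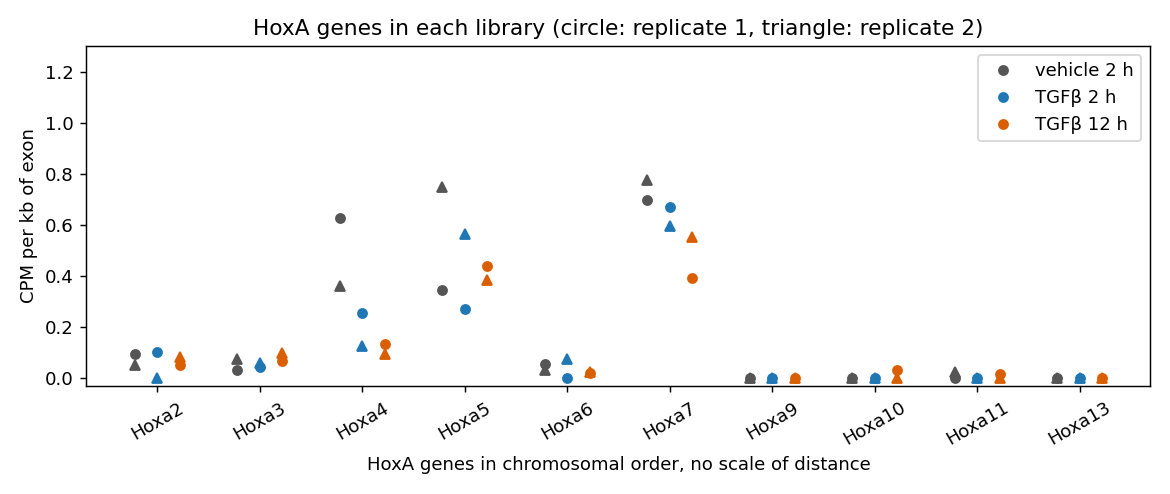
TMM-normalized CPM per kb of exon for HoxA genes in chromosomal order, with a point for each of the 6 libraries colored by group. Hoxa5 and Hoxa7 stood above the baseline, Hoxa4 did so in vehicle but overlapped Hoxa3 at 12 h, Hoxa2, Hoxa3 and Hoxa6 stayed close to the baseline, and the 4 genes from Hoxa9 to Hoxa13 lay at or near 0.

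HoxB, on chromosome 11 between 96055630 and 96229570, was marked by Hoxb13 alone, a gene known for its role in the prostate and the tail end of the body. Hoxb13 took 88.8% of the reads of its cluster over all libraries, and 74.0 kb separated it from Hoxb9, its nearest Hox neighbor. At 12 h it took 5 of 8 HoxB reads in replicate 1 and 11 of 16 in replicate 2. Hoxb6 had 9 reads in total, Hoxb3 6, Hoxb5 5, Hoxb4 4, Hoxb9 3 and Hoxb7 1, none above 3 in a library, and Hoxb1, Hoxb2 and Hoxb8 had none. Exons of Hoxb7 and Hoxb8 overlap, as do those of Hoxd3 and Hoxd4. At 1.36 ± 0.410 CPM per kb in vehicle (SD, n = 2), Hoxb13 had a higher mean than Hoxa7, and both of its replicates lay above those of Hoxa7.

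HoxC, on chromosome 15 between 102751534 and 102867274, gave 7 genes with a read and 2 without. Hoxc13 had 3 reads in total and Hoxc10 had 2. Hoxc4, Hoxc5, Hoxc6, Hoxc8 and Hoxc9 had 1 read each, and Hoxc11 and Hoxc12 had none. In HoxD, on chromosome 2 between 74506367 and 74603200, Hoxd1, Hoxd3, Hoxd4, Hoxd8, Hoxd9, Hoxd10, Hoxd11, Hoxd12 and Hoxd13 had 0 reads in every library. By position within the clusters, the 8 anterior genes (numbers 1 to 3) received 263 reads, the 15 central genes (4 to 8) 372, and the 16 posterior genes (9 to 13) 236, of which Hoxb13 gave 222. The noncoding genes Hoxd3os1 and Hoxaas3 were at 0, and Hoxa11os had 1 read.

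Several genes around the silent clusters were expressed in the same libraries. The neighbors listed lay between 8.45 and 910 kb from the ends of their cluster. At 60.7 kb from HoxD, Mtx2, a mitochondrial outer membrane protein, stood at 64.7 CPM in vehicle, and 155 kb from HoxC, Cbx5, the heterochromatin protein HP1α, stood at 484 CPM. Smug1, a DNA repair glycosylase at 116 kb from HoxC, stood at 44.1 CPM in vehicle. Skap2, 143 kb from HoxA, stood at 70.9 CPM in vehicle. The homeobox genes Evx1 and Evx2, which lie 52.6 kb from HoxA and 8.45 kb from HoxD on their posterior sides, were at 0 in all 6 libraries. Calls at an adjusted p under 0.05 are read against all 11080 genes tested by edgeR, of which 15.2% were called at 2 h and 43.3% at 12 h, or 29.1% and 55.3% with the replicates paired. Of the 4 tested neighbors of HoxA, edgeR, limma-voom and DESeq2 called 0 at either time, with 0 at an unadjusted p under 0.05, and scaling by total counts gave 1 lower at 12 h. Of the 4 of HoxB, edgeR and limma-voom called 0 and DESeq2 1 at 12 h, where edgeR gave 1 at an unadjusted p under 0.05, and with the replicates paired 1 was called higher and 1 lower. Around HoxC 1 of 5 tested genes was higher at 12 h (2 with the replicates paired). Around HoxD 1 of 5 was lower at 2 h and 2 at 12 h (3 with the replicates paired). These counts were not above the shares for all genes, apart from the 1 of 5 at 2 h and the 3 of 5 at 12 h, which were close to them. Nfe2l2, the antioxidant regulator NRF2 at 910 kb from HoxD, gave the largest of these changes, with a log2FC of -1.04 at 2 h (adjusted p = 0.00208 by edgeR) and -1.26 at 12 h (adjusted p = 0.000284 by edgeR).

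**Figure D3:**
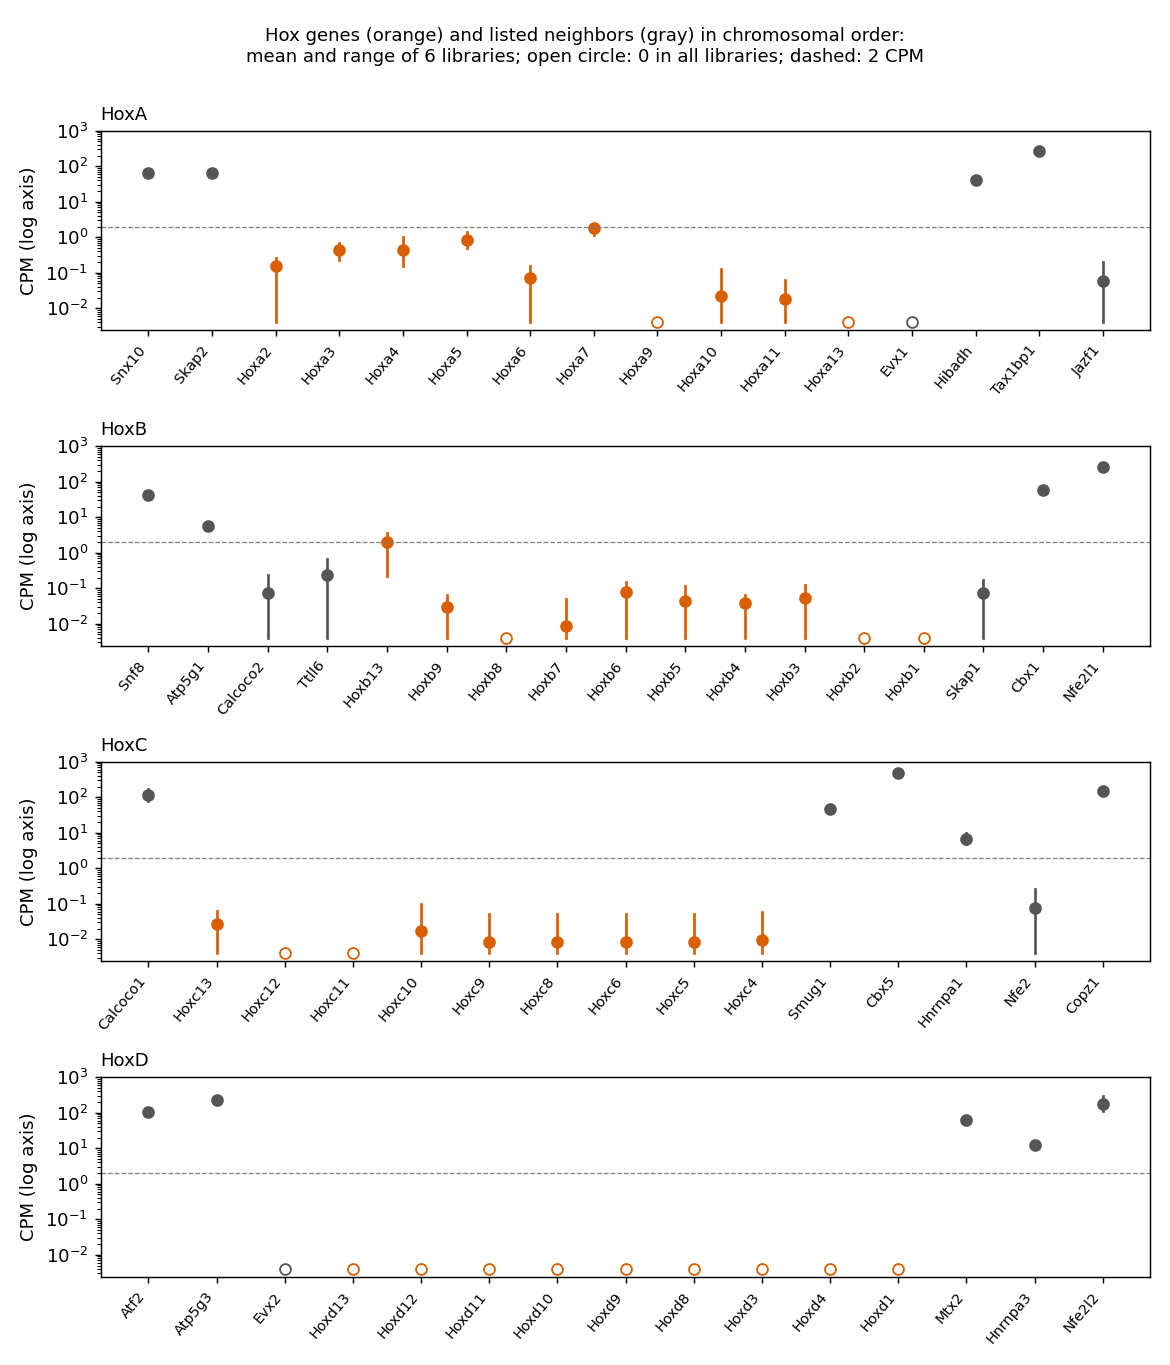
CPM on a log axis for the Hox genes (orange) and the listed neighbors (gray) of each cluster in chromosomal order, as the mean and range of 6 libraries. Open circles mark 0 in all libraries and the dashed line 2 CPM. HoxC and HoxD lay at the floor between expressed neighbors such as Cbx5 and Mtx2.

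After 2 h of TGFβ, no Hox gene passed the test. Changes are given as log2FC, the log2 fold change of normalized counts. They were tested in edgeR by quasi-likelihood, and p-values were adjusted after Benjamini and Hochberg over all 11080 genes tested. A gene was called at an adjusted p under 0.05. At 2 h 0 of the 3 tested Hox genes were called, while 15.2% of all tested genes were called, 9.91% as higher and 5.25% as lower. Of these calls 65.4% were higher, or 46.7% when libraries were scaled by total counts. At an unadjusted p under 0.05 edgeR gave 0 Hox genes, DESeq2 0 and limma-voom 1, and none of these tools called any after adjustment.

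Hoxb13 (Entrez gene 15408, chr11:96055630-96058761, plus strand) fell by 12 h and not by 2 h. Its counts were 40 and 57 in vehicle, 51 and 58 at 2 h of TGFβ, and 5 and 11 at 12 h. Both 12 h libraries thus lay far below the 4 others, which overlapped. In normalized units the means were 2.995 ± 0.904 CPM in vehicle, 2.754 ± 0.244 at 2 h and 0.392 ± 0.246 at 12 h (SD, n = 2). By edgeR, Hoxb13 changed at 12 h against vehicle with a log2FC of -2.95 (SE 0.475, adjusted p = 0.00310). Against 2 h of TGFβ the 12 h log2FC was -2.83 (SE 0.473, adjusted p = 0.00528 by edgeR), which is the test of the difference between both times. At 2 h the log2FC was -0.12 (SE 0.384, adjusted p = 0.868 by edgeR). In bulk RNA, fewer cells with Hoxb13 RNA and less Hoxb13 RNA per cell cannot be told apart.

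Hoxb13 was the only Hox gene called at 12 h, 1 of 3 tested. The share of all tested genes called at 12 h was 43.3%, with 21.8% higher and 21.5% lower (50.3% of calls higher, or 37.5% by total counts), so 1 call among 3 genes is no departure from this background. With a log2FC beyond 1 as well, 11.6% of all genes were lower. In the comparison of 12 h with 2 h, again 1 of 3 was called, against 34.1% of all tested genes, with 15.2% higher and 18.9% lower. The 2 calls share the 12 h libraries, and the vehicle libraries serve both comparisons with vehicle.

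**Figure D4:**
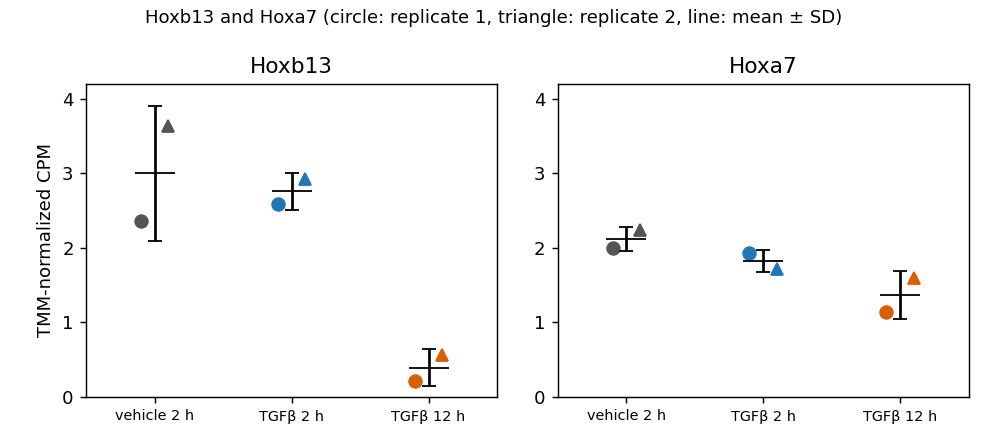
TMM-normalized CPM of Hoxb13 and Hoxa7 in each library, with the mean and SD of each group of 2. Hoxb13 was at 0.218 and 0.565 CPM in the 12 h libraries, below every other library, and Hoxa7 stayed between 1.133 and 2.231 CPM.

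Hoxa7 (Entrez gene 15404, chr6:52164490-52171853, minus strand), a gene of the thoracic region of the body axis, had 34 and 35 reads in vehicle, 38 and 34 at 2 h, and 26 and 31 at 12 h. The normalized values were 2.002 and 2.231 CPM in vehicle, 1.924 and 1.716 at 2 h, and 1.133 and 1.593 at 12 h. The groups did not overlap in these CPM values, but the steps between them were small. The log2FC was -0.22 at 2 h (SE 0.302, adjusted p = 0.680 by edgeR), -0.64 at 12 h (SE 0.308, adjusted p = 0.139 by edgeR) and -0.42 between 2 h and 12 h (SE 0.307, adjusted p = 0.326 by edgeR).

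**Figure D5:**
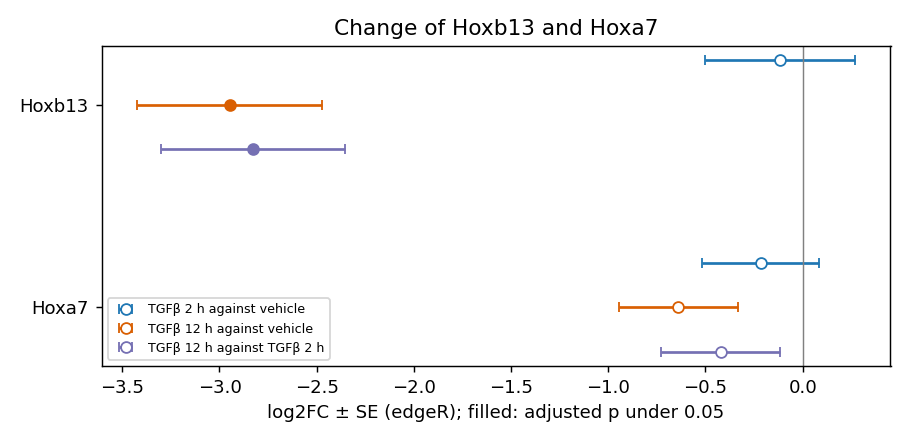
Log2FC with its SE from edgeR for Hoxb13 and Hoxa7 in the 3 comparisons, with filled points for an adjusted p under 0.05. Hoxb13 lay at -2.95 and -2.83 in the comparisons of 12 h with vehicle and with 2 h, and the other 4 points were open.

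The 4 HoxA genes below the test level are given by their values, with added fits without that level for Hoxa4 alone. Hoxa4 (Entrez gene 15401) had 17 and 9 reads in vehicle, 8 and 4 at 2 h, and 5 and 3 at 12 h. Vehicle libraries were above the TGFβ libraries, 1.001 and 0.574 CPM against 0.405, 0.202, 0.218 and 0.154. Without the level filter, all genes with any read in the 6 libraries were tested, and 31.8% of 16115 genes were called at 12 h. In this fit edgeR called Hoxa4 at 12 h with a log2FC of -2.03 (SE 0.660, adjusted p = 0.0433). The adjusted p was 0.120 by DESeq2, and with edgeR it was 0.238 without vehicle replicate 1, 0.0723 without vehicle replicate 2, 0.140 without 12 h replicate 1 and 0.197 without 12 h replicate 2. With these 4 libraries left out in the same order, the log2FC by edgeR was -1.56, -2.36, -2.32 and -1.82. The adjusted p was 0.0354 by limma-voom, and by edgeR 0.0216 with the replicates paired, 0.0293 by total counts, 0.0303 without 2 h replicate 1 and 0.0261 without 2 h replicate 2. The direction held in these fits and the call did not in all of them, and Hoxa4 counts as too low to judge.

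Hoxa5, a gene studied as a tumor suppressor in breast epithelium, had 11 and 22 reads in vehicle, 10 and 21 at 2 h, and 19 and 14 at 12 h. The groups overlapped, and in the vehicle and 2 h groups the replicates differed more than the group means. Hoxa3 had 4 and 8 reads in vehicle, 6 and 8 at 2 h, and 11 and 13 at 12 h. Its mean level was 0.373 ± 0.194 CPM in vehicle and 0.574 ± 0.133 at 12 h. Hoxa2 had between 0 and 5 reads in each library, with no separation of the groups.

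By cluster, the summed HoxA level was 6.98 ± 0.953 CPM in vehicle, 4.78 ± 0.597 at 2 h and 4.62 ± 0.369 at 12 h (SD, n = 2). HoxB summed to 3.30 ± 1.01, 3.01 ± 0.172 and 0.585 ± 0.335 CPM in the same order, following Hoxb13. HoxC summed to 0.0613 CPM in vehicle, 0.202 at 2 h and 0 at 12 h, from at most 4 reads in a library. These sums were not tested. No HoxA gene that passed the filter was called at 2 h or 12 h, and the HoxA sum includes genes too low to judge.

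The TALE homeodomain cofactors, which bind DNA together with Hox proteins, formed a list of 11 genes, of which 9 were tested. At 2 h 1 rose and 1 fell, the second not called by limma-voom. At 12 h 2 rose and 1 fell, or 3 rose and 1 fell with the replicates paired. The share of all tested genes called was 15.2% at 2 h and 43.3% at 12 h, or 55.3% at 12 h with the replicates paired. The median log2FC of the list was 0.162 at 2 h and 0.0996 at 12 h, against -0.00913 and 0.0151 for all tested genes. Tgif1, a TALE corepressor of SMAD and retinoid signaling, had a log2FC of 1.61 at 12 h (SE 0.200, adjusted p = 0.00106 by edgeR) and of 1.13 at 2 h (adjusted p = 0.0127 by edgeR), where the adjusted p was 0.0750 without vehicle replicate 2.

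Caudal and ParaHox genes are homeobox genes related to the Hox clusters, and caudal factors regulate Hox genes in the embryo. Of 6 listed, Cdx2 alone was tested, at 14.4 ± 1.97 CPM in vehicle, 11.2 ± 0.846 at 2 h and 1.29 ± 0.0837 at 12 h (SD, n = 2). Its log2FC was -0.36 at 2 h (adjusted p = 0.235 by edgeR) and -3.47 at 12 h (SE 0.212, adjusted p = 8.4e-05 by edgeR).

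Retinoic acid sets Hox gene activity in the embryo, and 9 of 18 listed retinoid genes were tested. At 2 h 3 were called higher and 1 lower, 3 and 3 with the replicates paired, or 2 and 2 by total counts. At 12 h 4 were higher and 3 lower, 4 and 4 with the replicates paired, or 3 and 4 by total counts. The all-gene shares of calls were 15.2% at 2 h and 43.3% at 12 h, or 29.1% and 55.3% with the replicates paired. The medians were 0.262 at 2 h and 0.0419 at 12 h. Aldh1a1, which makes retinoic acid, was at 109.7 and 106.6 CPM in vehicle and at 4.75 and 5.60 at 12 h, a log2FC of -4.39 (SE 0.137, adjusted p = 2.7e-05 by edgeR). Dhrs3, which turns retinal back into retinol, had a log2FC of -4.24 at 12 h (SE 0.320, adjusted p = 0.000164 by edgeR). With the replicates paired, Aldh1a1 and Dhrs3 were also called lower at 2 h, with adjusted p of 0.0353 and 0.0421 by edgeR. Rdh10, which makes retinal from retinol, had a log2FC of 1.58 at 2 h (SE 0.183, adjusted p = 0.00282 by edgeR) and of 2.35 at 12 h (SE 0.187, adjusted p = 0.000197 by edgeR). Cyp26b1, which breaks down retinoic acid, had a log2FC of -1.70 at 12 h (adjusted p = 0.0265 by edgeR), and the adjusted p was 0.149 without vehicle replicate 2, 0.151 without 12 h replicate 1 and 0.0906 without 12 h replicate 2.

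Trithorax and Polycomb proteins hold Hox clusters in active and silent states. All 12 Trithorax and MLL genes counted were tested, and edgeR called 2 higher and 0 lower at each time, with 1 lower at an unadjusted p under 0.05 each time. DESeq2 called 1 lower at 2 h and 0 at 12 h, and limma-voom 0 at both. With the replicates paired the calls were 2 up and 1 down at 2 h and 3 up and 1 down at 12 h, and by total counts 1 up and 1 down, then 2 up and 2 down. The calls of 2 in 12 were near the 15.2% of all tested genes at 2 h and below the 43.3% at 12 h. Of 26 Polycomb genes 25 were tested, of which 3 rose and 1 fell at 2 h while 5 rose and 4 fell at 12 h, near the all-gene share of 15.2% at 2 h and below that of 43.3% at 12 h. With the replicates paired, the Polycomb calls were 5 up and 6 down at 2 h, then 7 up and 8 down at 12 h, against 29.1% and 55.3% of all tested genes. By total counts they were 1 up and 4 down, then 3 up and 7 down, so the balance of the list turned with the scaling. Median log2FC values at 2 h and 12 h were 0.000365 and 0.0716 for Trithorax and -0.187 and -0.005 for Polycomb. Kdm6b, which removes the Polycomb mark H3K27me3, had a log2FC of 1.53 at 12 h (SE 0.239, adjusted p = 0.00270 by edgeR). At 2 h its log2FC was 1.34 (adjusted p = 0.0135 by edgeR), a call kept in 12 of 14 alternatives. Cbx7, a Polycomb reader of that mark, had a log2FC of -1.42 at 12 h (SE 0.225, adjusted p = 0.00286 by edgeR). At 2 h the Cbx7 log2FC was -1.35 (adjusted p = 0.0105 by edgeR), a call kept in 13 of 14 alternatives. Cbx2, another reader, had a log2FC of 1.12 at 2 h (adjusted p = 0.0415 by edgeR), with an adjusted p of 0.0605 by total counts, 0.108 from the 2 groups alone, 0.163 without vehicle replicate 1, 0.102 without 2 h replicate 2, 0.107 without 12 h replicate 1 and 0.107 without 12 h replicate 2.

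The treatment was visible in 4 of 4 listed TGFβ response genes, which were called higher at both times. Of all tested genes 9.91% were called higher at 2 h and 21.8% at 12 h. This list too was chosen with earlier results of these data known, so it was no open check. Smad7, a feedback inhibitor of the pathway, had a log2FC of 2.07 at 2 h and 2.65 at 12 h. The epithelial markers Cdh1, Krt8, Krt18 and Krt19 stood between 392 and 2150 CPM in vehicle, but Epcam was at 0.182 CPM and Cldn7 at 0, so that 6 of 8 markers were tested. The summed epithelial level was 5320 to 6160 CPM in vehicle, 6810 to 6860 at 2 h and 10600 at 12 h. Its members did not move alike: from vehicle to 12 h the mean went from 1070 to 3330 CPM for Krt8 and from 2150 to 6190 for Krt18, but from 1760 to 455 for Krt19, from 392 to 372 for Cdh1, from 74.6 to 52.0 for Ocln and from 294 to 232 for Tjp1. Fibroblast markers, 2 of 7 tested, summed to 3.51 to 4.65 CPM in vehicle, 9.13 to 9.47 at 2 h and 14.8 to 16.0 at 12 h, with Thy1 and Lum at the floor. Col1a1 was at 0.961 CPM in vehicle and 10.9 at 12 h, while Pdgfra was at 2.47 and 2.63 and Dcn at 0.326 and 0.0218. Myoepithelial markers, 1 of 5 tested, summed to 2.55 to 5.18, 8.76 to 11.8 and 5.71 to 9.04 CPM, with Trp63 and Oxtr at the floor. Endothelial markers summed to 0.177 to 0.255 CPM in vehicle, 0.353 to 0.354 at 2 h and 1.74 to 1.95 at 12 h. Of them Cdh5 had 1 and 2 reads in vehicle and 39 and 36 at 12 h, and the other 4 were at the floor. The immune markers stayed between 4.36 and 6.95 CPM with Cd3e at the floor, and adipocyte markers were at most 0.0505 CPM. The part of these shifts in the Hox values was not tested.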

How the data were processed

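RNA was measured in 6 libraries of NMuMG cells. According to the study's methods, the authors aligned reads to mm9 with subjunc of Rsubread, kept unique alignments, removed duplicates with SAMtools 0.1.19 and counted reads per gene on the reverse strand over UCSC exons with featureCounts. How reads in exons of 2 genes were treated is not given in the sources used here. The submitters' processing notes also name edgeR 3.20.9 and limma 3.34.9. Deposited were unnormalized counts for 21240 genes, with 14705886 to 23786993 counts per library. Groups came from the submitters' labels.

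Counts were tested in R 4.3.3 with edgeR 4.0.16 (glmQLFit and glmQLFTest) with TMM factors, in 1 fit of 3 groups without a replicate term, for the 11080 genes that reached 2 CPM in 2 or more libraries. Benjamini-Hochberg adjustment was made within each contrast. CPM were TMM-normalized. Positions and exon lengths came from GENCODE on NCBIM37, the same assembly as mm9, and promoters from RefSeq. Alternatives were limma-voom 3.58.1, DESeq2 1.42.0, DESeq2 size factors, total counts, no filter on low counts, at least 10 counts in every library, a replicate block, fits of only 2 groups, and leaving out each library. The script was tested on simulated data. Tables were handled in Python 3.11.15 with pandas 2.3.3 and numpy 2.4.6.

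Replicate numbers come from the labels. Deviations of same-numbered libraries from their group means correlated over 11080 genes at 0.708 for vehicle and 2 h, 0.263 for vehicle and 12 h and 0.392 for 2 h and 12 h. The numbers were therefore taken to pair the libraries in the replicate block. The main fit leaves this pairing out, so its SE, adjusted p and shares of calls do not use it. Values given with the replicates paired come from the replicate block.

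The Hox genes and the lists were chosen with earlier results of these data known. Hox genes that passed the filter are given with values and those below it by counts. Genes of the lists were named with values only where they were called with an absolute log2FC above 1, besides markers and neighbors given as levels. The alternatives for Hoxa4 without the filter were added after the data had been seen. Protein sequences were not analysed here, and 1 Hox gene and some genes of the lists are not reported here.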

Additional observations from a re-analysis of the deposited data

Results flagged for a closer look

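By edgeR's test of 12 h against 2 h, 34.1% of the 11080 tested genes had an adjusted p under 0.05. Of all tested genes 15.2% were higher and 18.9% lower at 12 h, in a fit of 2 libraries per group. Listed genes with smaller changes against vehicle passed as well, some higher and some lower. Given here are the 6 reported genes that passed and also had a called log2FC against vehicle beyond 1 in size. Among the Hox genes this was Hoxb13, with a log2FC of -2.83 between both times. Of the genes listed with them, Cdx2 had a log2FC of -3.11, Aldh1a1 of -4.04, Dhrs3 of -3.82 and Cyp26b1 of -2.10, so that these 4 were lower at 12 h than at 2 h. Rdh10 had 0.77 and was higher at 12 h. The 12 h libraries also come from cells kept longer in culture, which cannot be told apart from the longer treatment.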

How the results depend on the processing

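The fall of Hoxb13 at 12 h kept its direction and its call under the 13 alternatives that tested the gene, with log2FC from -3.75 to -2.40 when a library was left out, from -3.08 to -2.94 otherwise, and adjusted p of at most 0.0256. Against 2 h the leave-one-out values ran from -3.62 to -2.28 with adjusted p of at most 0.0434. At 2 h the Hoxb13 log2FC ran from -0.40 to 0.22 when a library was left out, turning without vehicle replicate 2. It was not called in any of these fits. With the replicate block, Hoxb13 had log2FC of -2.94 at 12 h (adjusted p = 0.000139 by edgeR), and the block changed no call of a Hox gene. Without a filter on low counts 2 Hox genes were called at 12 h, Hoxb13 and Hoxa4. With at least 10 counts in every library Hoxb13 was no longer tested, 0 Hox genes were called at 12 h against vehicle or 2 h, and 0 HoxB genes passed. Summed HoxC was 0.0649 CPM in vehicle and 0.198 at 2 h by total counts, and 0.2015 at 2 h by DESeq2 size factors. Total counts moved the median log2FC of all genes to -0.12 at 2 h and -0.115 at 12 h. Cyp26b1 at 2 h ran from -0.034 to 0.99 with a library left out, turning without vehicle replicate 1 and, at -0.019, without 2 h replicate 2. Calls among all genes at 2 h numbered 1680, but 3222 with the block, 893 with only the groups compared and between 618 and 900 without a vehicle or a 12 h library. At 12 h they numbered 4799, but 2898 and 2822 without a 12 h library, and against 2 h 3775, but 1605 and 1660 without a 12 h library. The causes were not tested. Of the 39 Hox genes 36 were not tested.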
